A study of Homo sapiens with 22 samples.

Results

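The genes described here encode subunits of the sodium pump (Na+/K+-ATPase), the membrane protein that bufalin binds. They were chosen by symbol: the 5 rows ATP1A4, ATP1B1, ATP1B2, ATP1B3 and FXYD5 of the 35237 rows in the deposited count table. They were followed through 22 RNA libraries from 2 established human neuroblastoma lines, SK-N-AS and GIMEN, both of which the labels call MES, for mesenchymal.

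SK-N-AS contributed 4 groups of 4 libraries. Untreated cells grew in DMEM with 10% fetal bovine serum (FBS). S1D4 cells received 5 µM PP121, an inhibitor of tyrosine kinases and phosphoinositide kinases, for 4 days in 1% FBS. S2D4 and S2D30 cells went through the S1D4 step and were then moved to Neurobasal medium with B27, 5 µM PP121 and 100 nM bufalin, for 4 or 30 days. GIMEN contributed 2 groups of 3 libraries, untreated cells in RPMI with 10% FBS and D30 cells that received 2.5 µM PP121 and 10 nM bufalin in 1% FBS for 30 days. Bufalin therefore entered SK-N-AS together with a change of medium, and always together with PP121, so that effects of the drugs, the medium and the time in culture cannot be told apart. The labels number the replicates without saying that they came from separate cultures, so the p-values measure the spread between these libraries, which may be technical.

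The sodium pump exports sodium and imports potassium at the cost of ATP, and the gradients it builds set the resting potential of neurons and drive many other transporters. Its alpha subunit carries the catalytic cycle and the binding site for cardiac glycosides such as bufalin. Its beta subunit is a glycoprotein needed for the alpha subunit to fold and reach the plasma membrane, and the small FXYD proteins bind the complex and adjust its kinetics.

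The members lie on 4 chromosomes, and in GENCODE 29 (GRCh38) all 5 are on the plus strand. ATP1A4, a catalytic subunit known mainly from sperm, spans chr1:160151570-160186977. ATP1B1, the beta subunit found in most tissues, spans chr1:169105697-169132722. ATP1B2, the beta subunit of glia and neurons, spans chr17:7646627-7657768. ATP1B3, another widely expressed beta subunit, spans chr3:141876124-141926514. FXYD5, also called dysadherin and known as a modulator of the pump and of cell adhesion, spans chr19:35154730-35169883. The build and annotation used for the authors' counts are not given in the sources used here, so these positions describe the genes and not the counting.

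The 250 bases before the RefSeq start (GRCh38.p14, plus strand) are printed for ATP1B1, ATP1B3 and FXYD5, because these genes held most of the members' counts and moved in different directions. The windows are chr1:169106440-169106689, chr3:141876393-141876642 and chr19:35154485-35154734. GENCODE 29 gives 2 start positions for ATP1B1, 2 for ATP1B3 and 7 for FXYD5, so a window does not precede every annotated start. The ATP1B1 and ATP1B3 windows lie inside the GENCODE spans given above, and the FXYD5 window reaches the first bases of its span. Capitals mark matches, on either strand, to a GC box (GGGCGG), to the promoter element named CCAAT, and to the core of the CREB binding site, whose letters are TGACGT. All run 5′ to 3′.
ATP1B1: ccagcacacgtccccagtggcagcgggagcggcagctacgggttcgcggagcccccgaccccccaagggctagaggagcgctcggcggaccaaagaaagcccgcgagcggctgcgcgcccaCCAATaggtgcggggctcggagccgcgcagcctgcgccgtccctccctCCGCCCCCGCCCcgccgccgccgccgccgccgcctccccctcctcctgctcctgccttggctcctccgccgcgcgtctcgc
ATP1B3: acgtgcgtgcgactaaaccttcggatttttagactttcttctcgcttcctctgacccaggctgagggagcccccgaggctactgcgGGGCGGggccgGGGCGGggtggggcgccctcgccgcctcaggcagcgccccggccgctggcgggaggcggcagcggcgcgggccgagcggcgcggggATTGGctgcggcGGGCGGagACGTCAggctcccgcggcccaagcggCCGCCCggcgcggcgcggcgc
FXYD5: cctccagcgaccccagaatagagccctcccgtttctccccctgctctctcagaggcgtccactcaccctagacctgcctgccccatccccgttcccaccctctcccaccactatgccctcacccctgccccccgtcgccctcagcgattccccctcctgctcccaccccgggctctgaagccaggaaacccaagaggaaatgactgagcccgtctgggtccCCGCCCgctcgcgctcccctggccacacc
GC content was 77.6% for ATP1B1, 77.2% for ATP1B3 and 68.0% for FXYD5. The ATP1B3 window held 4 GC boxes, 1 CCAAT and 1 TGACGT. The ATP1B1 window held 2 adjoining GC boxes and 1 CCAAT, and the FXYD5 window held 1 GC box. Over 35116 human promoter windows of the same length, 42.6% held GGGCGG, 32% held CCAAT and 7.1% held TGACGT. None of the 3 windows held the AP-1 site TGACTCA, which 4.2% of all windows held. The E-box sequence CACGTG (6.34% of windows), the E-box sequence CACCTG (17.5%) and the TATA box sequence TATAAA (10.7%) were also not in them. A match is a description of the letters and not evidence of a bound factor.

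Total counts per library ran from 16456484 to 37506800. Levels are given as CPM (counts scaled by library size) after 1 TMM scaling of the 22 libraries, and in such bulk RNA fewer cells of a type and less RNA per cell cannot be told apart. All 8 mesenchymal neuroblastoma markers exceeded 1 CPM on average in each group, with summed levels of 931 to 1469 CPM in untreated SK-N-AS and 37704 to 39288 CPM in untreated GIMEN. That sum was 2528 to 4772 CPM in S2D4 and 3088 to 3809 CPM in S2D30, above the untreated range, and 20504 to 23581 CPM in GIMEN D30, below it. Most of it was VIM in SK-N-AS (mean 937 CPM untreated, 2862 CPM in S2D30) and FN1 in GIMEN (31491 CPM untreated, 18017 CPM at D30). Other markers went against the sum. In S2D30 FN1 fell from 60.3 to 1.89 CPM and TWIST1 from 108 to 85.2 CPM. In GIMEN D30 CD44 rose from 693 to 1067 CPM and YAP1 from 194 to 213 CPM. The part of these marker changes in the members' changes was not tested. The 8 markers of the adrenergic state summed to 1571 to 1763 CPM in untreated SK-N-AS and 178 to 226 CPM in S2D30. In GIMEN they summed to 410 to 435 CPM in untreated cells and 234 to 277 CPM at D30. HAND2, one of them, averaged 578 CPM in untreated SK-N-AS, 143 CPM in S2D30 and 363 CPM in untreated GIMEN. TH, another, was at 0 in GIMEN, and averaged 0.268 CPM in untreated SK-N-AS and 28.6 CPM in S1D4. GATA3 averaged 60.2 CPM in untreated GIMEN and 68.7 CPM at D30. A list of 5 leukocyte markers summed to 160 to 208 CPM in untreated SK-N-AS libraries, and these sums were 52.1 to 67.1 CPM for S1D4, 24.3 to 26.6 CPM for S2D4 and 3.02 to 5.43 CPM for S2D30. PTPRC alone averaged 177 CPM in the untreated cells, and CD3E was at 0 in each SK-N-AS library. The part of such cells in the falls of ATP1B1 and ATP1B2 described next was not tested. S2D4 replicate 4 stood apart from its group, with a mean correlation of 0.968 with the other libraries against 0.982 to 0.983 for the other 3, so S2D4 values are also given without it where that matters.

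**Figure D1:**
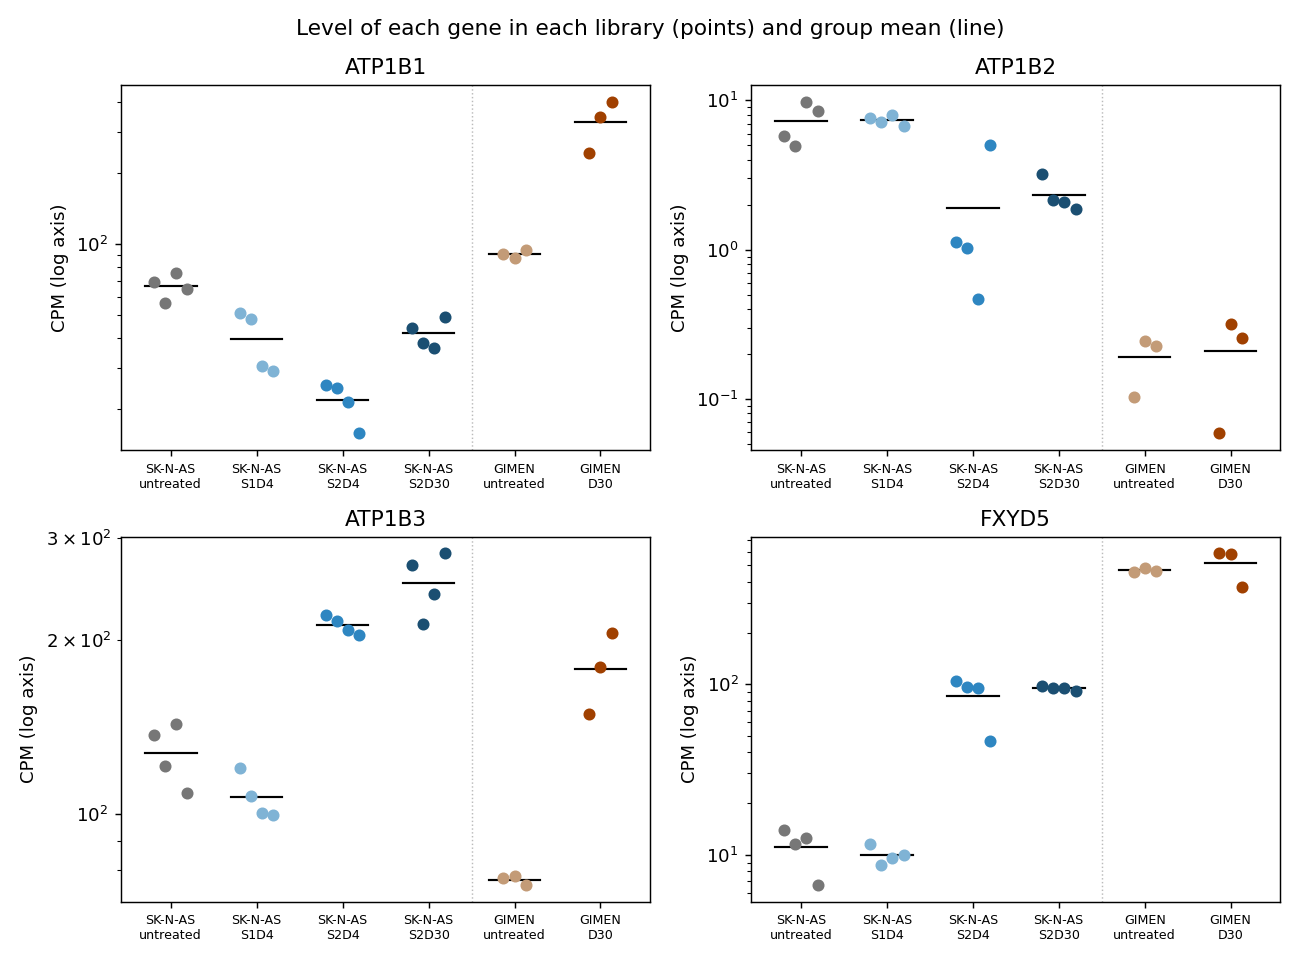
Level of ATP1B1, ATP1B2, ATP1B3 and FXYD5 in each library, in CPM on a log axis, for the 6 groups; points are libraries and lines are group means. ATP1B1 was lowest in S2D4 (15.8 to 25.4 CPM), FXYD5 moved from 6.62 to 14 CPM in untreated SK-N-AS to 91.2 to 97.4 CPM in S2D30, and the GIMEN points of ATP1B2 rest on 1 to 5 counts each.

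ATP1B1 fell in SK-N-AS at each stage compared with untreated cells, and rose in GIMEN. Untreated SK-N-AS libraries measured 69.3, 56.3, 75.4 and 64.4 CPM. S1D4 libraries measured 51.1, 48.3, 30.5 and 28.9 CPM, all below the untreated range. In S2D4 the values were 25.4, 24.5, 21.5 and 15.8 CPM, and in S2D30 they were 44.2, 38.2, 36.2 and 49.1 CPM. The lowest point was thus S2D4, where each library lay below each library of the other 3 SK-N-AS groups, and the S2D30 values overlapped those of S1D4. Against untreated cells the log2 fold change was -0.77 ± 0.19 (SE) in S1D4, -1.64 ± 0.19 in S2D4 and -0.70 ± 0.19 in S2D30, with adjusted p-values of 0.00376, 1.47e-06 and 0.00326 (edgeR quasi-likelihood test, Benjamini-Hochberg over all genes tested). From S1D4 to S2D4 the gene fell by 0.88 on the log2 scale (SE 0.19, adjusted p = 0.001), and from S2D4 to S2D30 it rose by 0.95 (SE 0.19, adjusted p = 0.000575).

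The S1D4 libraries of ATP1B1 formed a high pair and a low pair. The difference in log2 CPM from the untreated libraries of the same replicate numbers was -0.33 for replicates 1 and 2 and -1.23 for replicates 3 and 4. Both were below 0, and the 4 libraries of S1D4 did not overlap the untreated ones. The same differences were -0.18 and -0.32 for ATP1B3. They had opposite signs for ATP1B2 (0.45 and -0.32) and for FXYD5 (-0.34 and 0.098). This division by replicate number was looked at after the data were seen, and nothing in the labels names it a batch.

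In GIMEN, ATP1B1 measured 91.3, 87.5 and 94.5 CPM in untreated cells and 244, 345 and 403 CPM at D30. The groups were far apart, although the D30 libraries spread widely (331 ± 80.5 CPM, SD, n = 3). The gene rose by 1.83 ± 0.15 (SE) on the log2 scale, a 3.57-fold change (edgeR adjusted p = 5.71e-07), and 9.44% of the 13517 genes tested had a larger change in either direction. The 30-day change thus had opposite signs in the lines, and its difference, SK-N-AS minus GIMEN, was -2.55 ± 0.22 (SE; edgeR interaction, adjusted p = 6.38e-08). Doses, media and serum differed between the lines as well.

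A part of the annotated ATP1B1 exons, 7.1% of their bases, lies opposite exons of NME7, a gene of the nucleoside diphosphate kinase family. Whether the authors' counting used strand is not given in the sources used here, so reads there could belong to either gene. NME7 lay between 31.7 and 40.6 CPM in untreated SK-N-AS, between 25.2 and 28.9 CPM in S2D4, close to or above ATP1B1 there, and between 11.7 and 15.5 CPM in GIMEN D30. Against untreated cells it fell by 0.41 on the log2 scale in S1D4 (edgeR adjusted p = 0.00554), by 0.40 in S2D4 (adjusted p = 0.00299) and by 1.07 in S2D30 (adjusted p = 1.39e-07), where ATP1B1 fell by 0.70. It fell by 0.65 in GIMEN (adjusted p = 0.000385), where ATP1B1 rose.

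ATP1B3 moved the other way from ATP1B1 in SK-N-AS after bufalin and the new medium were added, and with it in GIMEN. Untreated SK-N-AS libraries measured 137, 121, 143 and 109 CPM and S1D4 libraries 120, 107, 100 and 99.5 CPM, so these groups overlapped. S2D4 libraries measured 221, 215, 208 and 204 CPM. S2D30 libraries measured 269, 213, 240 and 282 CPM. Each library of both stage 2 groups lay above each untreated and S1D4 library, and the stage 2 groups overlapped each other. ATP1B3 rose by 0.70 ± 0.11 (SE) in S2D4 and by 0.94 ± 0.11 in S2D30 against untreated cells on the log2 scale (edgeR adjusted p = 2.39e-05 and 5.74e-07), and by 0.98 ± 0.11 from S1D4 to S2D4 (adjusted p = 1.08e-06). The change from S2D4 to S2D30 was 0.24 ± 0.10 and missed the threshold (adjusted p = 0.0631). The change in S1D4 was -0.28 ± 0.11 (adjusted p = 0.0423), a call that was lost under 12 of 17 alternative analyses.

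In GIMEN, ATP1B3 measured 77.5, 78.0 and 75.4 CPM in untreated cells and 149, 180 and 205 CPM at D30. The groups did not overlap. The rise was 1.18 ± 0.10 (SE) on the log2 scale, or 2.27-fold (edgeR adjusted p = 9.66e-07), and 19.3% of genes tested changed by more. The 30-day change differed between the lines by -0.26 ± 0.18, which did not pass the test (adjusted p = 0.253).

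ATP1B2 was a minor beta subunit in SK-N-AS and near the limit of detection in GIMEN. Untreated SK-N-AS libraries measured 5.79, 4.98, 9.83 and 8.46 CPM and S1D4 libraries 7.59, 7.16, 7.93 and 6.74 CPM. The S1D4 values lay inside the untreated range. S2D4 libraries measured 1.12, 1.03, 0.471 and 5.02 CPM, and S2D30 libraries 3.20, 2.15, 2.08 and 1.87 CPM. Replicate 4 of S2D4 overlapped the untreated range while the other 3 did not, and all S2D30 libraries lay below all untreated ones.

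The log2 fold change of ATP1B2 against untreated cells was -0.00 ± 0.44 (SE) in S1D4, -1.90 ± 0.47 in S2D4 and -1.67 ± 0.47 in S2D30, with edgeR adjusted p-values of 0.997, 0.00219 and 0.00454. From S1D4 to S2D4 it was -1.90 ± 0.47 (adjusted p = 0.00283). Without S2D4 replicate 4 the falls to S2D4 were larger, -3.08 against untreated and -3.08 against S1D4. The step from S2D4 to S2D30 was 0.23 ± 0.48 (adjusted p = 0.719) with that library and 1.41 (adjusted p = 0.00129) without it, so that 1 library decided whether a partial return was called.

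In GIMEN, ATP1B2 had 2, 5 and 4 counts in the untreated libraries and 1, 5 and 4 counts at D30, too few to enter the test. Summed over libraries, 831 counts in untreated SK-N-AS against 11 in untreated GIMEN gave a scaled ratio of 37.1, with a 95% counting interval of 20.6 to 74.6 that covers counting error only. At 30 days, 204 counts in S2D30 against 10 in GIMEN D30 gave a ratio of 11.3 (6.01 to 23.9). Its 30-day change in SK-N-AS minus that in GIMEN, -1.77 ± 0.76 (SE), missed the threshold (edgeR interaction, adjusted p = 0.0639).

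FXYD5 made the largest move of the members in SK-N-AS, and it did so at the step where bufalin and the Neurobasal medium were introduced. Untreated libraries measured 14, 11.6, 12.5 and 6.62 CPM and S1D4 libraries 11.5, 8.71, 9.53 and 9.93 CPM. The change in S1D4 was -0.20 ± 0.23 (SE) on the log2 scale (edgeR adjusted p = 0.541). S2D4 libraries measured 104, 96.2, 95 and 46.5 CPM, and S2D30 libraries 97.4, 95.5, 95.6 and 91.2 CPM. All stage 2 values lay above all earlier ones, including replicate 4 of S2D4, which was the only one below 90 CPM.

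The rise of FXYD5 against untreated cells was 2.90 ± 0.24 (SE) on the log2 scale in S2D4, or 7.46-fold, and 3.05 ± 0.24 in S2D30, or 8.28-fold (edgeR adjusted p = 2.39e-08 and 7.17e-09). From S1D4 to S2D4 it was 3.10 ± 0.24 (adjusted p = 3.04e-08), and 2.8% of the 15810 genes tested changed by more at that step. Without S2D4 replicate 4 these rises to S2D4 were 3.11 and 3.30. From S2D4 to S2D30 the change was 0.15 ± 0.22 (adjusted p = 0.594).

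GIMEN had high FXYD5 before any treatment. Untreated libraries measured 457, 481 and 460 CPM and D30 libraries 587, 585 and 371 CPM. The D30 libraries lay on both sides of the untreated ones, and the change was 0.12 ± 0.14 (SE; edgeR adjusted p = 0.471). Without D30 replicate 3 it was 0.30 (adjusted p = 0.000194). The 30-day changes of the lines differed by 2.92 ± 0.27, SK-N-AS minus GIMEN (edgeR interaction, adjusted p = 1.88e-07). The S2D30 mean of 94.9 ± 2.63 CPM (SD, n = 4) was still below each GIMEN library.

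ATP1A4 had at most 8 counts in any library and none in 7 of the 22, and the filter on low counts removed it from the main tests. A count of 3, set as the floor of detection in each library, corresponded to 0.0742 to 0.193 CPM depending on the library. ATP1A4 had 7, 8, 1 and 0 counts in S1D4, 2, 4, 2 and 6 counts in S2D4, and 0 to 3 counts in each library of the other groups. After scaling, the S2D4 libraries (0.0931 to 0.217 CPM) did not overlap the untreated SK-N-AS ones (0 to 0.0611 CPM), and those of S1D4 did. As raw counts the S2D4 and untreated groups met at 2 counts, with ranges of 2 to 6 and 0 to 2. With no filter on low counts, no comparison of ATP1A4 passed the threshold in edgeR, and the log2 fold change against untreated cells was 1.94 in S1D4 (adjusted p = 0.154) and 1.74 in S2D4 (adjusted p = 0.159). These fitted values rest on a few counts and depend on the prior count.

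The members' calls are set here against all genes tested, at an adjusted p of 0.05. In S1D4, 2 of the 4 members tested were called, both lower, against 40.1% of all genes. In S2D4 all 4 were called, 2 in each direction, against 63.1% of all genes. In S2D30 the same count, 2 higher and 2 lower, stood beside 70.3% of all genes. From S1D4 to S2D4 it was 4 of 4 beside 55.1%, and from S2D4 to S2D30 1 of 4 beside 51.3%. In GIMEN 2 of 3 were called, both higher, beside 71.4%. The difference of the 30-day change was called for 2 of 4 beside 49.7%. With so many genes called throughout, these shares do not set the members apart. Several of the sizes were ordinary too: in S2D30, 51.4% of genes tested changed by more than ATP1B1, 40.4% by more than ATP1B3, 21.6% by more than ATP1B2 and 9.54% by more than FXYD5. In S2D4 these shares were 16.5%, 43.6%, 13.3% and 6.09%. The SK-N-AS comparisons with untreated cells share the same 4 untreated libraries.

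**Figure D2:**
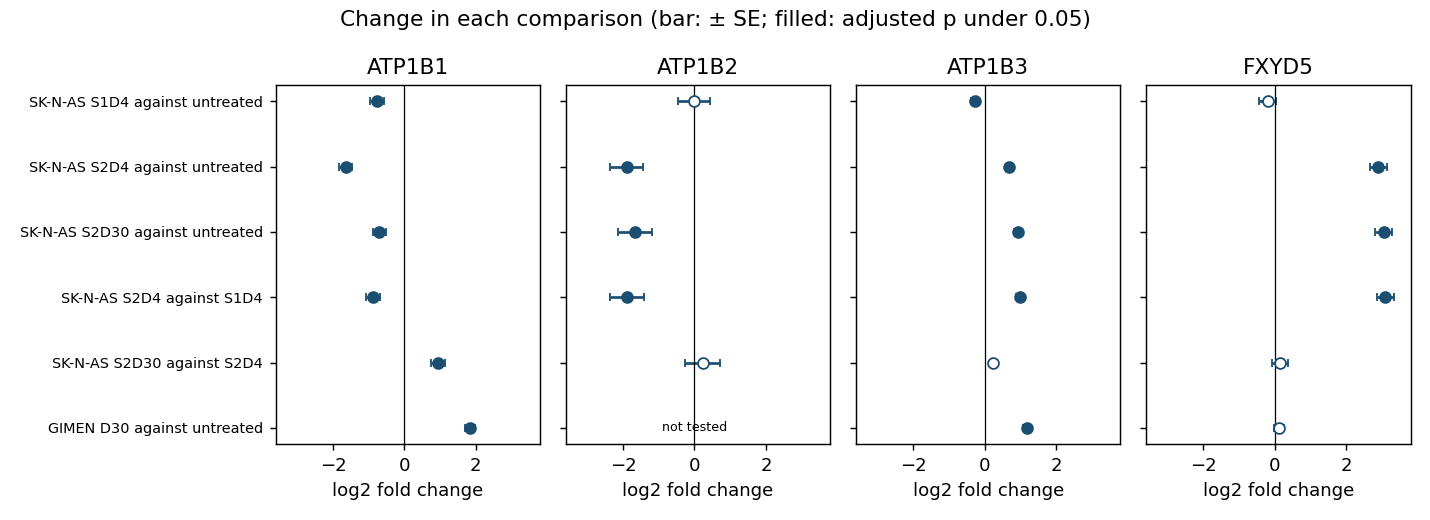
Log2 fold change of ATP1B1, ATP1B2, ATP1B3 and FXYD5 in each comparison; bars are ± SE from the edgeR fit and filled points have an adjusted p under 0.05. ATP1B1 was -0.70 in S2D30 and 1.83 in GIMEN D30, FXYD5 was 3.05 and 0.12, and ATP1B3 was above 0 in both.

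Untreated cells of the lines differed in all 4 members tested, beside 73.9% of 16246 genes. FXYD5 was lower in SK-N-AS than in GIMEN by -5.39 ± 0.21 (SE) on the log2 scale, a 42.1-fold difference (edgeR adjusted p = 5.22e-13). ATP1B2 was higher by 5.18 ± 0.42 (adjusted p = 7.29e-09) and ATP1B3 by 0.71 ± 0.13 (adjusted p = 0.000107). ATP1B1 was lower by -0.47 ± 0.15 (adjusted p = 0.00949), a call lost with upper-quartile scaling (-0.32, adjusted p = 0.06) and with library totals (-0.14, adjusted p = 0.435). Those scalings moved the median gene of this comparison by 0.15 and 0.33.

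Levels of different genes can be compared once divided by the length of their annotated exons. In untreated SK-N-AS the order was ATP1B3 (70.4 ± 8.62 CPM per kb, SD, n = 4), ATP1B1 (24.5 ± 2.99), FXYD5 (4.18 ± 1.19) and ATP1B2 (2.30 ± 0.72), with the ranges of the last 2 overlapping. In S2D30 FXYD5 (35.6 ± 0.986 CPM per kb) stood above ATP1B1 (15.5 ± 2.16), and the ranges did not overlap. In untreated GIMEN FXYD5 led with 175 ± 4.97 CPM per kb (n = 3), followed by ATP1B3 (42.5 ± 0.771) and ATP1B1 (33.7 ± 1.29). At D30 ATP1B1 (122 ± 29.7 CPM per kb) passed ATP1B3 (98.3 ± 15.5) within each library, although the ranges of the groups overlapped.

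The make-up of the beta transcript, each beta gene's share of the summed CPM per kb of ATP1B1, ATP1B2 and ATP1B3, shifted in opposite directions in the lines. In SK-N-AS, ATP1B3 held 72.4 ± 2.35% (SD, n = 4) of it before treatment, 77.9 ± 3.17% in S1D4, 93.1 ± 0.590% in S2D4 and 89.5 ± 0.680% in S2D30. ATP1B1 held 25.3 ± 1.73%, 19.0 ± 3.48%, 6.39 ± 1.06% and 10.0 ± 0.682% in the same groups. In GIMEN the share of ATP1B3 went from 55.8 ± 1.37% to 44.9 ± 2.46% (n = 3), and that of ATP1B1 from 44.2 ± 1.37% to 55.1 ± 2.45%. ATP1B2 held 2.37 ± 0.695% in untreated SK-N-AS and 0.480 ± 0.115% in S2D30. The sum itself was 97.2 ± 11.2 CPM per kb in untreated SK-N-AS, then 76.0 ± 9.35 at S1D4, 126 ± 5.21 at S2D4 and 155 ± 19.0 at S2D30, and went from 76.2 ± 0.622 to 221 ± 45.3 in GIMEN. More beta transcript by this measure was thus present in the 30-day groups of both lines than in their untreated groups, without overlap, through ATP1B3 in SK-N-AS and through both ATP1B1 and ATP1B3 in GIMEN.

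**Figure D3:**
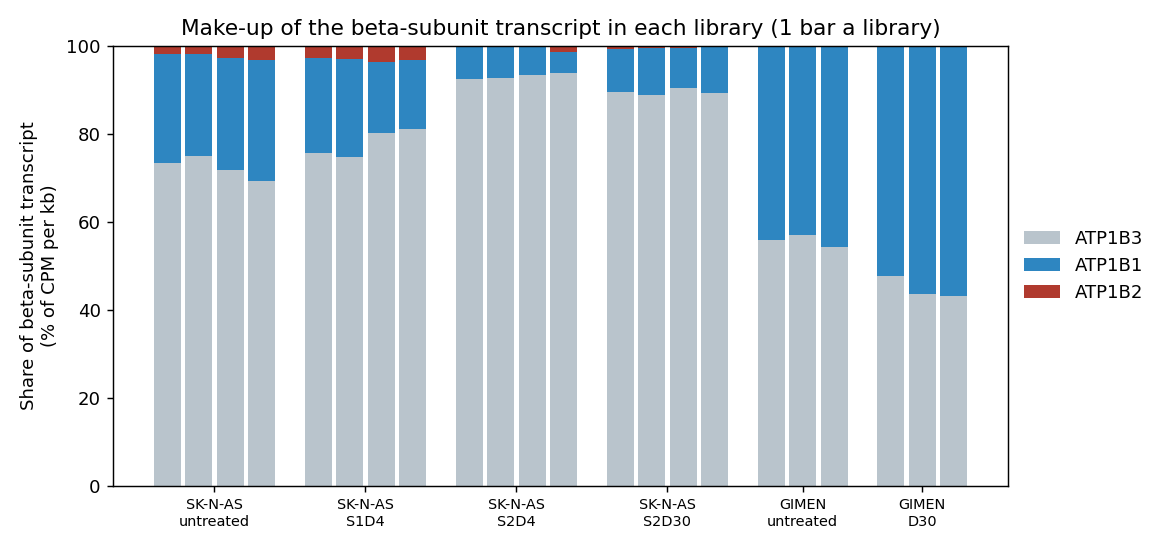
Share of the beta-subunit transcript held by ATP1B3, ATP1B1 and ATP1B2, in percent of their summed CPM per kb, with 1 bar for each library. ATP1B3 filled 88.8 to 90.4% of each S2D30 bar and 43.2 to 47.7% of each GIMEN D30 bar.

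A ratio of 2 genes within a library does not depend on how libraries are scaled, and was tested by exact permutation over libraries. The log2 ratio of ATP1B1 to ATP1B3 counts was -0.98, -1.10, -0.92 and -0.76 in untreated SK-N-AS and -2.60, -2.48, -2.73 and -2.52 in S2D30. The groups lay well apart, with a difference of -1.64 ± 0.09 (SE). The corresponding difference was -0.53 ± 0.18 in S1D4 and -2.36 ± 0.15 in S2D4, and from S2D4 to S2D30 the ratio moved back by 0.72 ± 0.14. Each of these 4 gave the smallest two-sided exact p that 4 against 4 libraries allow, 0.0286, and 0.0468 after Benjamini-Hochberg adjustment over 18 ratio tests. Without any 1 of the untreated or S1D4 libraries the adjusted p of the comparisons it belonged to was 0.0514 to 0.138. In GIMEN the ratio went from 0.24, 0.17 and 0.33 to 0.71, 0.94 and 0.97, a difference of 0.63 ± 0.09. Here 3 against 3 libraries cannot go below an exact p of 0.1, which was reached (adjusted p = 0.138).

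The ratio of FXYD5 to ATP1B3 showed how unequal their rises were. It was higher by 2.18 ± 0.30 (SE) on the log2 scale in S2D4 and by 2.16 ± 0.19 in S2D30 than in untreated SK-N-AS (two-sided exact p = 0.0286, adjusted p = 0.0468, for both). In GIMEN the D30 ratios of 1.98, 1.70 and 0.855 lay below the untreated ratios of 2.56, 2.62 and 2.61, a difference of -1.08 ± 0.34 at the smallest p that design allows (exact p = 0.1, adjusted p = 0.138). The ratio of ATP1B2 to ATP1B3 was lower by -3.15 ± 0.75 in S2D4 and by -2.59 ± 0.30 in S2D30 (exact p = 0.0286, adjusted p = 0.0468, for both).

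The genes whose log2 CPM followed a member most closely over the 22 libraries were named from 10294 genes with a mean of at least 10 CPM. These correlations describe 6 groups of libraries from 2 lines and are not evidence of a relation between genes. For ATP1B1 they were RNF182, a ubiquitin ligase (Pearson r = 0.982), RTN3, a reticulon of the endoplasmic reticulum (0.951), and CMAS, an enzyme that activates sialic acid (0.950). RNF182 averaged 7.75 ± 0.223 CPM in untreated SK-N-AS, 2.35 ± 1.11 in S2D4, 3.97 ± 0.517 in S2D30, 12.5 ± 0.648 in untreated GIMEN and 51.7 ± 7.66 at D30. For ATP1B3 they were CHMP5, a component of the ESCRT-III membrane remodelling complex (0.951), NFIL3, a transcriptional repressor (0.950), and ANAPC13, a subunit of the anaphase-promoting complex (0.937). For FXYD5 they were BCAP29, a protein of the endoplasmic reticulum (0.990), S100A6, a calcium-binding protein (0.985), and MBNL1, a splicing regulator (0.982). S100A6 averaged 37.2 ± 9.87 CPM in untreated SK-N-AS, 159 ± 39.3 in S2D4 and 118 ± 8.86 in S2D30, and 451 ± 17.0 and 535 ± 89.8 in GIMEN.

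Among 14 further pump and FXYD family genes, only 3 were expressed highly enough to be tested in SK-N-AS. In S2D30 FXYD6, a neuronal FXYD protein, fell from 40.3 ± 7.96 to 4.72 ± 0.366 CPM (SD, n = 4), a log2 change of -3.13 ± 0.23 (SE; edgeR adjusted p = 3.25e-09), while FXYD5 rose. The other two were scarce: FXYD1 was higher by 3.60 ± 0.71 (adjusted p = 0.000232) at 0.905 CPM in S2D30, and NKAIN1 was lower by -5.56 ± 0.52 (adjusted p = 6.38e-08) from 5.51 CPM. In untreated GIMEN no library had a count for FXYD6 or NKAIN1, and neither of the 2 genes of this list tested in GIMEN (FXYD1 and FXYD7) passed. The fall of FXYD6 was already called in S1D4 (-1.72 ± 0.22, adjusted p = 1.2e-05), before FXYD5 rose.

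Transporters that run on the sodium or potassium gradient were called higher in larger numbers than lower at 30 days. For comparison, 33.8% of all genes tested were called higher and 36.5% lower in S2D30, and 35.5% and 36% in GIMEN D30. In S2D30, 12 of 19 tested rose and 4 fell, with a median log2 fold change of 0.75 beside -0.03 over all genes. In GIMEN D30, 9 of 14 rose and 3 fell, with a median of 0.46 beside 0.02. SLC12A7, a potassium-chloride cotransporter, rose from 2.94 ± 1.48 to 212 ± 25.7 CPM in S2D30 (log2 6.13 ± 0.44, edgeR adjusted p = 2.39e-09). SLC4A8, a sodium-driven bicarbonate exchanger, fell from 56.3 ± 14.6 to 19.2 ± 0.663 CPM (-1.59 ± 0.17, adjusted p = 4.11e-07). In GIMEN, SLC9A5, a sodium-proton exchanger, rose by 0.93 ± 0.09 (adjusted p = 1.81e-06) and SLC8A1, a sodium-calcium exchanger, fell from 216 ± 4.35 to 45.2 ± 6.05 CPM (-2.28 ± 0.08, adjusted p = 9.63e-10).

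Of the calcium pumps, which share the P-type fold of the sodium pump, 3 of 8 tested rose and 1 fell in S2D30 (median 0.23), and 3 of 7 rose and none fell in GIMEN D30 (median 0.04). Fewer of them were called than of all genes, 4 of 8 beside 70.3% and 3 of 7 beside 71.4%. ATP2B1, a plasma membrane calcium pump, rose in both, from 96.9 ± 11.8 to 507 ± 18 CPM in S2D30 (2.35 ± 0.09, edgeR adjusted p = 1.43e-12) and from 135 ± 1.83 to 250 ± 50.0 CPM in GIMEN (0.86 ± 0.12, adjusted p = 3.93e-05). ATP2B3, its neuronal relative, fell from 35.4 ± 19.5 to 0.297 ± 0.0999 CPM in S2D30 (-6.90 ± 0.80, adjusted p = 7.71e-07).

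Among 13 genes known to act on the pump or on cation transporters, 7 rose and 3 fell in S2D30 (median 0.76). In GIMEN D30, 4 of 11 tested rose and 5 fell (median -0.31). They are kinases and ligases, except CAV1 (caveolin-1), which is neither. CAV1 was among those that fell in S2D30, from 0.448 to 0.149 CPM (-1.60 ± 0.60, SE, edgeR adjusted p = 0.025). It averaged 188 CPM in untreated GIMEN and 71.4 CPM at D30. The 10 of 13 and 9 of 11 called were near the 70.3% and 71.4% of all genes. SGK1, a kinase that promotes sodium transport, rose from 5.69 ± 1.88 to 203 ± 8.68 CPM in S2D30 (5.11 ± 0.23, edgeR adjusted p = 7.04e-12) and from 15.1 ± 1.52 to 149 ± 44.5 CPM in GIMEN (3.28 ± 0.21, adjusted p = 7.86e-08). WNK2 fell by 2.31 on the log2 scale in S2D30 (adjusted p = 4.23e-09) and WNK4 by 2.30 in GIMEN (adjusted p = 1.56e-09), both kinases of the family that regulates chloride cotransporters. Before bufalin, in S1D4, 5 of the 19 transporters rose and 1 fell, and none of the 8 calcium pumps rose and 1 fell. Of the 13 genes of this list, 4 rose and 1 fell. Over all genes, 17.6% were called higher and 22.4% lower.

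**Figure D4:**
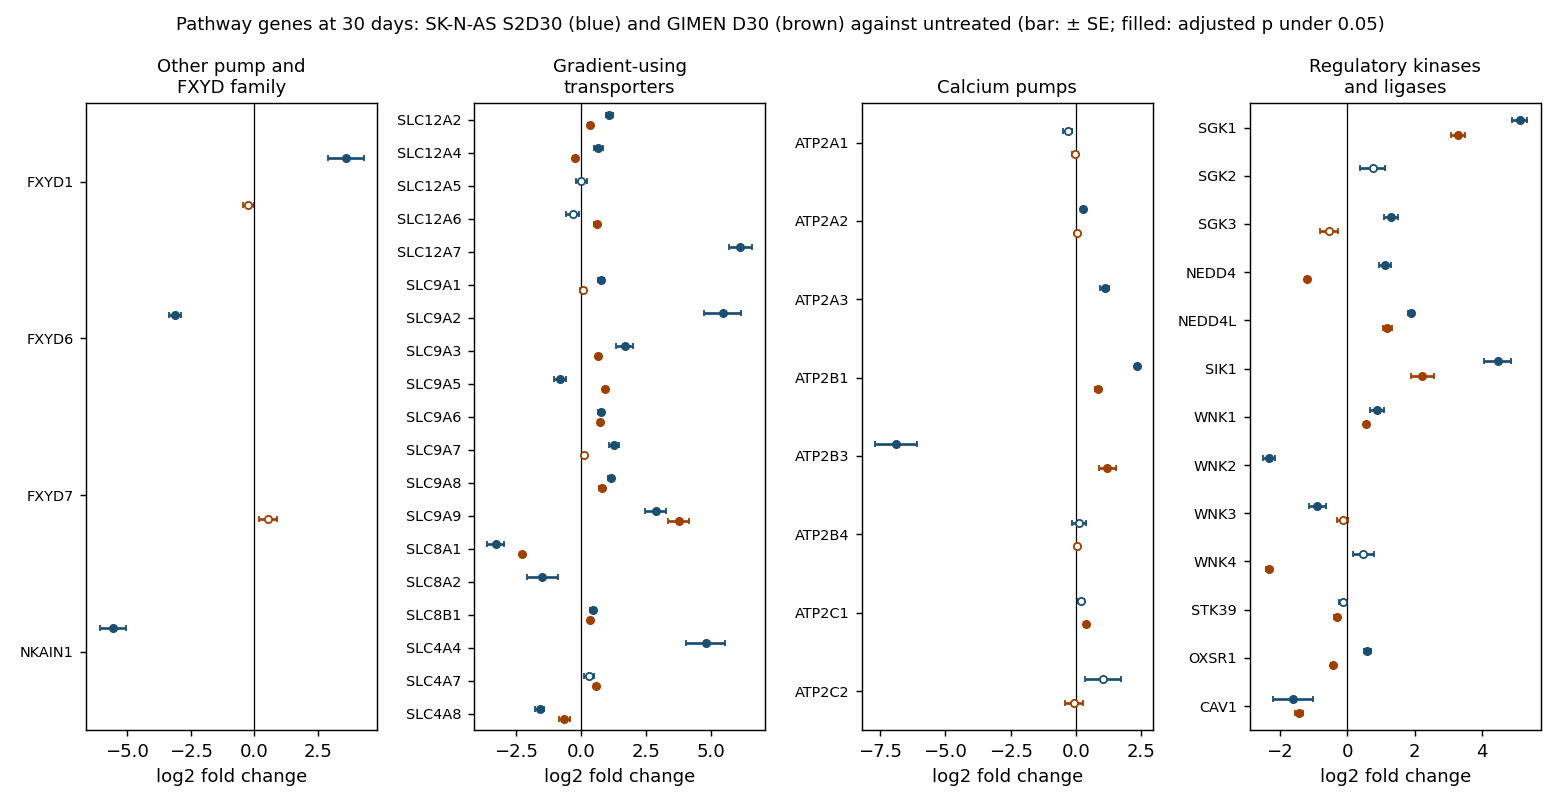
Log2 fold change at 30 days of the tested genes of 4 lists, for SK-N-AS S2D30 (blue) and GIMEN D30 (brown) against untreated cells; bars are ± SE and filled points have an adjusted p under 0.05. SGK1 lay at 5.11 and 3.28, ATP2B1 at 2.35 and 0.86, and a gene without a point for a line was not tested there.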

How the data were processed

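RNA from 22 libraries was analysed as the raw counts per gene that the authors deposited in 1 table. Per the labels, libraries were paired-end on an Illumina HiSeq X, and the aligner, counting tool, build and strand setting are not given in the sources used here. The members and gene lists were chosen with earlier results of these data known.

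In R 4.3.3, edgeR 4.0.16 fitted its quasi-likelihood F-test to genes kept by filterByExpr, with TMM scaling and Benjamini-Hochberg adjustment at 0.05. The models covered 16 SK-N-AS libraries (15810 genes), 6 GIMEN libraries (13517 genes) and, for differences between lines, 14 untreated and 30-day libraries (16246 genes). The code was tested on simulated data. Ratios used counts plus 0.5 and exact two-sided permutation tests.

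Named genes were the members, the largest called change in each direction of each list at 30 days with a mean of at least 10 CPM, and for each abundant member the 3 most correlated genes; FXYD1, NKAIN1 and NME7 were added after their values were seen. Exon lengths came from GENCODE 29 and promoters from RefSeq. Alternatives included DESeq2 1.42.0, other scalings and filters, a replicate block and leaving out each library. Some genes of the lists are not reported here.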

Additional observations from a re-analysis of the deposited data

Results flagged for a closer look

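Of 20 combinations of a member and a group of 4 libraries, 2 held a library far from the others by Dixon's criterion, which chance meets in about 1 of 20 groups. Both were replicate 4 of S2D4. ATP1B2 measured 5.02 CPM there against 0.471 to 1.12 CPM in the other 3 libraries. FXYD5 measured 46.5 CPM there against 95 to 104 CPM. In both cases the library lay on the side of the untreated and S1D4 values. Its ATP1B3 level, 204 CPM, was also the nearest of its group to theirs, though above each of them, while its ATP1B1 level of 15.8 CPM was the farthest from theirs. The part of sample handling in this was not tested.

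The 30-day change differed between SK-N-AS and GIMEN for 2 members by the interaction test of edgeR. The difference, SK-N-AS minus GIMEN, was -2.55 on the log2 scale for ATP1B1, which fell in SK-N-AS and rose in GIMEN. It was 2.92 for FXYD5, which rose in SK-N-AS from a level 42.1-fold below that of GIMEN. Dose, medium and serum differed between the lines, so that they and the line cannot be told apart.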

How the results depend on the processing

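Over 31 member fold changes, 486 of 527 values under an alternative kept their sign and their side of the threshold, 14 lost a call, 13 gained one and 14 changed sign. The number of members called in S1D4 was 1 instead of 2 with DESeq2 size factors, upper-quartile factors, library totals, DESeq2, no filter and the compared groups alone, and 1 to 2 when libraries were left out in turn; ATP1B3 was the gene lost (adjusted p 0.0513 to 0.16). From S2D4 to S2D30 it was 2 instead of 1 with DESeq2 size factors, upper-quartile factors, library totals, DESeq2 and the compared groups alone, and 1 to 2 when libraries were left out. ATP1B2 in S1D4, -0.0039 in the main analysis, was 0.019 with DESeq2 size factors, 0.028 with upper-quartile factors, 0.052 with library totals, 0.016 with DESeq2 and with no filter, 0.031 with the compared groups alone and 0.038 with a term for replicates 3 and 4, which was added after seeing the data. Leaving out each library gave -0.14 to 0.18 for it, -0.088 to 1.41 for ATP1B2 and -0.059 to 0.26 for FXYD5 from S2D4 to S2D30. For the ratio of FXYD5 to ATP1B3 it gave -0.032 to 0.21 in S1D4 and -0.27 to 0.079 from S2D4 to S2D30. These changes were near 0 in the main analysis, and the cause of the sign changes was not tested. The interaction of ATP1B2 passed the threshold under 5 alternatives, with an adjusted p of 0.0235 to 0.0488.

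Replicate numbers did not pair the libraries throughout. Deviations of same-numbered libraries correlated at -0.19 to 0.52 in SK-N-AS (24 pairs), beside -0.51 to 0.45 for different numbers (72 pairs). In GIMEN these ranges were -0.067 to 0.012 (3 pairs) and -0.076 to 0.12 (6 pairs). Between untreated and S1D4, however, same-numbered libraries gave 0.52, 0.43, -0.0084 and 0.42 for replicates 1 to 4. Untreated replicate 4 gave 0.45 with S1D4 replicate 3, and -0.51 and -0.36 with S1D4 replicates 1 and 2. The cause of this division was not tested. With a replicate block ATP1B2 in S1D4 was 0.040. The block changed no call of a member in the edgeR fits. Under it the 11 called ratios kept their values but had an adjusted p of 0.205, since 4 pairs cannot go below an exact p of 0.125. The differences were -0.53, -2.36, -1.64, -1.83 and 0.72 for ATP1B1, -3.15, -2.59 and -3.47 for ATP1B2, and 2.18, 2.16 and 2.05 for FXYD5. Leaving out any 1 untreated or S1D4 library of SK-N-AS also ended the adjusted calls of the ratio comparisons it belonged to (adjusted p 0.0514 to 0.138), with the direction kept. For the untreated line comparison a block within a line was not used, because its estimate would depend on which replicate is the reference. A block for the number shared by both lines, added after seeing the data, changed no call. Depth limits ATP1A4 in all groups and ATP1B2 in GIMEN.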
